A study of Mus musculus with 12 samples.

Results

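Nuclei of the claustrum and endopiriform Car3 type were chosen by their unique molecular identifiers (UMIs, the deduplicated molecules counted for a gene in a nucleus) in single-nucleus RNA sequencing of mouse cortex. A nucleus was selected on at least 1 UMI each of Nr4a2 and Gnb4, at least 3 UMIs of these genes together, at least 1 UMI of Slc17a7, none of Gad1 or Gad2, at most 1 UMI of Foxp2, and at most 1 UMI of Nxph4, Cplx3 and Ccn2 together. The rule found 242 nuclei among 71914 barcodes with at most 12000 UMIs and at most 1% mitochondrial UMIs, which was 0.337% of those barcodes and 1.04% of the 23296 glutamatergic nuclei (Slc17a7 at 1 UMI or more and no Gad1 or Gad2). They are called members below. The limits removed 6808 barcodes for their UMI total and 21 for mitochondrial UMIs, out of 78743, and no barcode occurred in more than 1 library.

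The claustrum is a thin sheet of glutamatergic neurons between the insular cortex and the striatum, and the endopiriform nucleus lies ventral to it. Claustral neurons exchange connections with most of the cortex, and their principal cell type shares a transcriptional programme with a class of deep-layer intratelencephalic neurons named after the carbonic anhydrase gene Car3. Nr4a2 encodes an orphan nuclear receptor, Gnb4 a G protein beta subunit, and Synpr the synaptic vesicle protein synaptoporin, and all have long served as claustrum markers.

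The cortex came from 12 mice at postnatal day 21 (P21), 6 wild type (WT) and 6 heterozygous (Het) for a Myt1l frameshift allele (S710fsX) on a C57BL/6J background, with 3 males and 3 females of each genotype. All 12 mice, WT included, had received AAV9 carrying the hyPB transposase and an H2b-tdT-SRT calling card construct at birth or the day after, so that no uninjected animal was available as a reference. Nuclei were fixed and processed together with the Scale Biosciences kit. Myt1l encodes a zinc finger transcription factor of neurons, and the question put to the design was how loss of 1 copy changed each cell type. The labels call the tissue cortex and the methods also speak of prefrontal cortex. Whether claustrum or endopiriform nucleus was included is not given in the sources used here.

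Each animal contributed 12 to 36 members (median 19) and 82608 to 297136 UMIs summed over them, from 4059 to 8798 barcodes. WT males 1 to 3 gave 14, 16 and 36 members, WT females 12, 23 and 25, Het males 13, 23 and 20, and Het females 25, 17 and 18. The median member held 7613.5 UMIs against 6120 in the other glutamatergic nuclei, and a rule that asks for several UMIs favours deep nuclei. Levels are given in CPM, the UMIs of a gene for every 1000000 UMIs summed over an animal's members, as mean ± SD over 12 animals unless another n is given. Which animal came from which litter is not given in the sources used here, and p-values measure the spread between these 12 animals.

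The values by which the members were chosen are described without a test. Nr4a2 (ENSMUSG00000026826.13, chromosome 2, 57106830 to 57124003 in GRCm38) was at 1 to 9 UMIs a member with a median of 2. Gnb4 (ENSMUSG00000027669.14, chromosome 3, 32580332 to 32616585) was at 1 to 13 with a median of 2, and their sum was at 3 to 20 with a median of 4.6. The threshold on the sum fell within a gradual change: the 72 members with a sum of 3 to under 4 held Synpr at 180.2 CPM and the netrin-G2 gene Ntng2 at 380.2 CPM, pooled over nuclei, and the 87 nuclei that met every other criterion with a sum under 3 held them at 120.2 and 322.7 CPM. The 170 members with a sum of 4 or more held Synpr at 637.7 and Ntng2 at 891.9 CPM. The members just inside the threshold were thus closer to those just outside it than to the rest of the members.

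Synpr, the marker that took no part in the rule, was higher in the members than in other glutamatergic nuclei, though not in every member. Synpr (ENSMUSG00000056296.17, chromosome 14, 13284780 to 13616340) gave at least 1 UMI in 158 of 242 members, or 65.3% (exact 95% binomial interval 58.9 to 71.3, counting error only). The share was 15.4% of the 23054 other glutamatergic nuclei and 4.87% of 3102 nuclei gated as layer 6 corticothalamic (Foxp2 at 3 UMIs or more, median depth 5921 UMIs). Thinned to 3000 UMIs a nucleus, the shares were 52.6% of 232 members, 10.6% of 20388 other glutamatergic nuclei and 3.11% of 2858 corticothalamic nuclei. Oligodendrocytes, taken as a cell type that should lack a neuronal marker, did not serve as a background for Synpr: a UMI was found in 34.0% of 2063 nuclei at a median depth of 2661 UMIs, with Synpr at 332.9 CPM, above the other glutamatergic nuclei. They also held Gnb4 at 180.6 CPM. The 5 oligodendrocyte genes listed summed to 31.8 to 90.9 CPM in the members of the 12 animals and 71.9 to 129.9 CPM in the other glutamatergic nuclei, against 12640 to 19110 CPM in the oligodendrocytes themselves. Car3, which gives the type its name, was sparse: 20 of 242 members held a UMI (8.26%, interval 5.12 to 12.5), against 0.0868% of the other glutamatergic nuclei and 0.0322% of the corticothalamic nuclei.

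Clustering of all glutamatergic nuclei without the genes of the rule gave 42 clusters, and 1 of them, with 335 nuclei, held 164 of the 242 members (67.8%). Its leading genes by fold over the other glutamatergic nuclei were Col11a1, Oprk1, Gfra1, Cntnap3, B3gat2, Rgs12, Ntng2, Col24a1, Tmem163 and Zfp804b, of which Oprk1, B3gat2 and Ntng2 stand on the claustrum marker list, and it is called the claustrum-like cluster here. No animal gave more than 12.5% of its nuclei. The remaining 78 members lay in 19 other clusters, 22 of them in the one led by Dnah14 and Galnt14, 14 in the one led by Npsr1, and 10 in the one led by Gm2115 and Pde11a. The cluster also held 171 nuclei that were not members. Of these, 152 lacked a full UMI of Nr4a2 or of Gnb4 and 19 had both with a sum under 3, and none was stopped by Foxp2 or by the Nxph4, Cplx3 and Ccn2 limit.

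Synpr, Ntng2, Oprk1, B3gat2 and Car3 were concentrated in the members inside that cluster, while Spon1, also on the marker list, ran the other way. Pooled over nuclei, with no test because the cluster was drawn from the same values, Synpr stood at 756.4 CPM in the 164 members inside and 33.1 CPM in the 78 outside, where the other glutamatergic nuclei had 69.2 CPM. Ntng2 stood at 1051 and 165.2 CPM, the kappa opioid receptor gene Oprk1 at 193.6 and 15.8 CPM, the glucuronyltransferase gene B3gat2 at 247.4 and 15.8 CPM, and Car3 at 19.1 and 1.58 CPM. The other glutamatergic nuclei had Ntng2 at 63.8, Oprk1 at 2.67, B3gat2 at 7.89 and Car3 at 0.147 CPM, below the members outside, whose levels of Oprk1 and B3gat2 rested on 10 UMIs each and of Car3 on 1 UMI. A Synpr UMI was found in 90.9% of members inside and 11.5% of those outside. The members outside instead carried more of the axonal receptor genes Nrp1 (193.3 against 6.52 CPM) and Epha6 (794.7 against 19.6 CPM), and of the activity-induced nuclear receptor gene Nr4a3 (182.8 against 36.6 CPM). The 171 nuclei inside the cluster that the rule missed held Synpr at 423.9, Ntng2 at 762.7 and Oprk1 at 166.9 CPM. The share, the contrast with other glutamatergic nuclei and the comparison of genotypes in members were therefore also computed for the members inside the cluster alone, and the value is given where it changed a call. Both fits of expression used only the 4 WT and 4 Het animals with 10 or more members inside. The contrast also left the cluster's other nuclei out of the comparison group. Nuclei and animals thus both differ from those of the fits on all members.

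**Figure D1:**
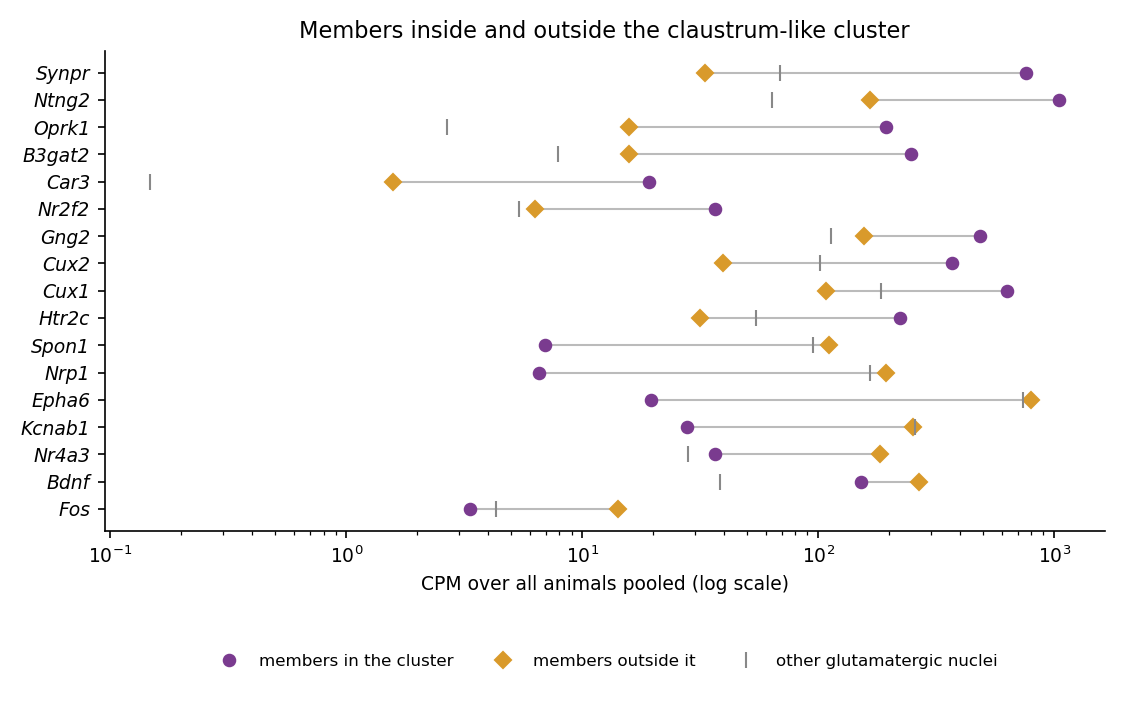
Pooled level (CPM, log axis) of marker genes in members inside the claustrum-like cluster, members outside it and other glutamatergic nuclei; each mark is 1 gene in 1 pooled set, with no error, and a line joins both sets of members. Synpr stands at 756.4 CPM inside and 33.1 CPM outside, whereas Nrp1 and Epha6 are higher outside.

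The claustrum marker list held 10 genes besides Nr4a2 and Gnb4. Of these, 7 were tested between members and other glutamatergic nuclei, 6 were higher in members and 1 was lower, with a median log2 fold change of 2.77, against a median of -0.02 over all 7223 genes tested. Among all genes tested, 771 (10.7%) were higher and 750 (10.4%) lower in members by edgeR's quasi-likelihood test with the animal as a block. A gene was called where the p adjusted by Benjamini and Hochberg's method was below 0.05 and the log2 fold change exceeded 0.2 in size. That balance depended on the filter on low counts: 633 genes were higher and 1291 lower with edgeR's own filter alone, and 529 and 1715 with none. A gene could reach the minimum count for testing, given under processing, in either group. Oprk1, B3gat2 and Nr2f2, at 2.81, 8.08 and 5.65 CPM in the other glutamatergic nuclei, reached it only through members. So did some genes on the lists that follow. Car3 and Lxn were too sparse to test, and Smim32 was not analysed here. Lxn gave a UMI in 5.79% of members and 0.512% of the other glutamatergic nuclei.

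Ntng2, which encodes the membrane protein netrin-G2, ranged from 420.5 to 945.2 CPM in the members of the 12 animals (median 744, mean 738 ± 157) and from 50 to 79.9 CPM in the other glutamatergic nuclei. The ranges did not overlap, and the log2 fold change was 3.52 ± 0.09 (SE, adjusted p = 2.0e-32 by edgeR). Oprk1 ranged from 56.6 to 231.6 CPM in members (median 117.6) and from 1.31 to 6.70 CPM in the others, a log2 fold change of 5.5 ± 0.22. B3gat2 ranged from 89.4 to 242 CPM against 5.30 to 11.4 CPM, a log2 fold change of 4.32 ± 0.16. Synpr varied more between animals, from 197.4 to 802 CPM (median 455.8) against 59.6 to 87.6 CPM, and its log2 fold change was 2.77 ± 0.19 (adjusted p = 8.7e-08). All 12 animals were higher in members for each of these genes. For members inside the cluster alone, fitted on 4 WT and 4 Het animals, the log2 fold changes were larger, at 4.15 for Ntng2, 6.93 for Oprk1, 5.15 for B3gat2 and 3.53 for Synpr. These are given as a description, since the cluster was drawn from these genes.

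The remaining markers differed less. Gng2, a G protein gamma subunit gene, stood at 370 ± 81.2 CPM in members and 114 ± 10.2 CPM in the others, a log2 fold change of 1.69 ± 0.10 with 12 of 12 animals higher. Nr2f2, which encodes the nuclear receptor COUP-TFII, was higher in 10 of 12 animals with a log2 fold change of 2.23 ± 0.33, and its members' level ran from 0 to 95.6 CPM. Spon1, which encodes the extracellular matrix protein spondin 1, was lower in members, at 44.1 ± 36.0 against 95.5 ± 8.44 CPM (log2 fold change -1.16 ± 0.31, adjusted p = 0.0139), and at -3.90 for members inside the cluster. In the pooled nuclei Spon1 stood at 6.94 CPM in members inside the cluster and 110.7 CPM in those outside.

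**Figure D2:**
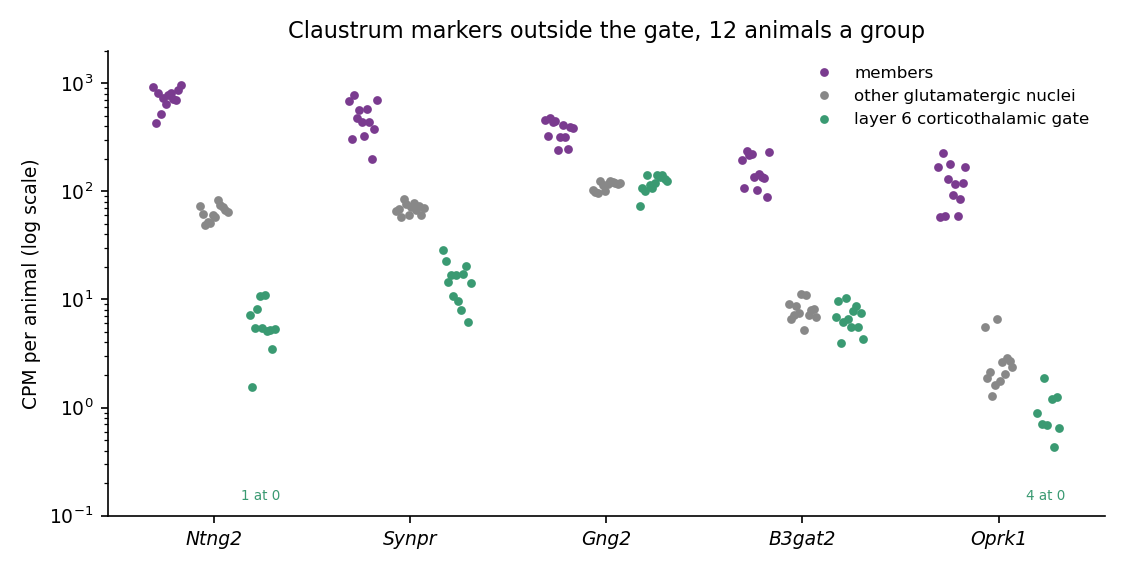
Levels (CPM, log axis) of claustrum markers that took no part in the rule in the members, in the other glutamatergic nuclei and in nuclei gated as layer 6 corticothalamic; each point is 1 of 12 animals. Ntng2, Oprk1, B3gat2 and Synpr in members lie above every animal's level in the other glutamatergic nuclei, and animals at 0 are counted at the foot of the axis.

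The genes with the largest differences outside the rule had varied roles. By the naming rule (at least 50 CPM in the higher group and the same direction in 12 of 12 animals, met by 179 higher and 219 lower genes), Col11a1, a fibrillar collagen gene, came first at 396.2 to 1176 CPM in members against 9.09 to 17.8 CPM in the others (log2 fold change 5.54 ± 0.14). It was followed, beside Oprk1, B3gat2 and Ntng2, by the contactin-associated protein gene Cntnap3 at 4.66 ± 0.26, the GDNF family receptor gene Gfra1 at 4.49 ± 0.15, another collagen gene Col24a1 at 4.05 ± 0.21, and the G protein signalling regulator Rgs12 at 4.03 ± 0.21. Lypd6, which encodes a modulator of nicotinic receptors, stood at 3.83 ± 0.27, the relaxin receptor gene Rxfp1 at 3.40 ± 0.15, the zinc transporter gene Tmem163 at 3.29 ± 0.16 and the transcription factor gene Tfap2d at 3.28 ± 0.28. All 12 of these genes had a higher pooled level in members inside the cluster than in those outside. This is a description, since most of them were also leading genes of the cluster, which was drawn from the same data. Lypd6 and Tfap2d were not tested against the corticothalamic gate, and the other 10 all passed as higher in members.

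Among the genes lower in members by the same rule, Cntn5, a contactin, ranged from 9.67 to 567.7 CPM in members (median 172.6) and from 946.5 to 1487 CPM in the others, so that the ranges did not overlap (log2 fold change -2.53 ± 0.34). Stxbp6 was lower at -3.33 ± 0.33 and Thsd7a at -2.90 ± 0.30. Reln, which encodes the secreted protein reelin, was at 0 to 44.1 CPM in members and 34.7 to 84.4 CPM in the others. Kctd8, Ptprm, Edil3, Dock10, Pdzrn3, Tshz2, Cemip and Kcnh5 lay between -2.72 and -2.18. Of the 12 genes, 7 were also tested against the corticothalamic gate and 6 were lower there, whereas Pdzrn3, which encodes a ubiquitin ligase, was higher than in that gate by 0.75 ± 0.23 on the log2 scale (adjusted p = 0.0128 by edgeR). Of the 12, 8 had a lower pooled level in members inside the cluster than outside. For members inside the cluster the log2 fold changes reached -4.23 for Cntn5, -5.79 for Tshz2, -4.83 for Reln and -4.41 for Stxbp6. Without Het male 2 Reln moved from -2.85 to -3.65, and without Het female 2 Stxbp6 moved to -4.05. Over all members Stxbp6 and Kctd8 held 16 UMIs each, Reln 15 and Dock10 17, so the sizes of their changes are uncertain.

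Transcription factors of cortical layers gave a mixed profile. Of 25 of 31 cortical transcription factors tested, 8 were higher and 10 lower, with a median log2 fold change of -0.04. Over all 7223 genes tested, 10.7% were higher and 10.4% lower, the background for this list and for those that follow. The homeobox genes of intratelencephalic neurons were higher: Cux2 ranged from 161.7 to 357.6 CPM in members and 65.2 to 121.7 CPM in the others (1.33 ± 0.10), and Cux1 stood at 436 ± 130 against 186 ± 21.3 CPM (1.22 ± 0.10). In the pooled nuclei inside and outside the cluster, Cux2 stood at 370.1 and 39.4 CPM and Cux1 at 632.9 and 107.9 CPM. Zfpm2, a cofactor of GATA factors on the corticothalamic list, was lower at 66.3 to 218.3 CPM against 427.3 to 647.8 CPM (-2.08 ± 0.13).

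The layer lists followed no single layer. Of 8 upper-layer intratelencephalic genes, 3 were higher, Cux2 and Cux1 among them, and 3 lower, Otof among them at -2.07 ± 0.46, with a median of -0.32. Of 5 genes tested from the layer 5 extratelencephalic and near-projecting list, none was higher and 4 were lower: Etv1 at -2.33 ± 0.31, Tshz2, Crym at -1.42 ± 0.29 and Bcl11b at -0.65 ± 0.21, with a median of -1.42. For members inside the cluster Etv1 stood at -3.56, Crym at -4.91 and Bcl11b at -1.91. Of 7 corticothalamic genes, Sox5 was higher at 1009 ± 130 against 581 ± 36.2 CPM and Thsd7b at 660 ± 220 against 301 ± 31.9 CPM, while 3 were lower, among them the synaptotagmin gene Syt6 at -4.53 ± 0.53 (-5.33 without WT male 3 and -5.40 without Het female 2). Syt6 was nearly absent from members, pooled at 1.09 CPM against 26.8 CPM in the others, so the size of its change is uncertain. Of 3 layer 6b genes, Lpar1 was higher at 1.22 ± 0.36, and Kcnab1 (-1.37 ± 0.18) and Inpp4b (-1.08 ± 0.28) were lower, at -3.30 and -2.22 inside the cluster. The call for Bcl11b was lost without WT male 3, WT female 1, 2 or 3, Het male 2 or Het female 1 (adjusted p from 0.0507 to 0.0707 by edgeR), and that for Lpar1 without Het male 1 (log2 fold change 1.01, adjusted p = 0.0507 by edgeR).

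Among receptors for neuromodulators, 14 of the 27 genes on the list were tested. Of these, 8 were higher and 1 was lower in members, against 10.7% higher and 10.4% lower over all genes tested. The median log2 fold change was 0.85. Beside Oprk1, the muscarinic receptor gene Chrm3 ranged from 1442 to 2210 CPM in members and from 566 to 979.6 CPM in the others (1.23 ± 0.07), and Chrm2 from 195.3 to 418.2 against 65.5 to 111.4 CPM (1.79 ± 0.10). The serotonin receptor gene Htr2a stood at 92.1 ± 57.3 against 16.6 ± 5.11 CPM (2.47 ± 0.17). These ranges did not overlap between members and the other nuclei. Also higher were Drd1 (2.41 ± 0.43), Htr2c, Chrna7 (0.86 ± 0.16) and Htr1f, and Htr4 was lower. Pooled Htr2c stood at 221.8 CPM inside and 31.5 CPM outside the cluster.

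Genes of glutamate receptors, metabotropic ones included, and of GABA-A receptors differed in both directions. Of 27 tested, 4 were higher and 10 lower (median -0.23), against 10.7% and 10.4% over all genes tested. The AMPA receptor subunit gene Gria4 was higher at 1561 to 3007 CPM against 726.3 to 944 CPM (1.38 ± 0.07), and the NMDA receptor subunit gene Grin3a was higher in 11 of 12 animals (2.65 ± 0.25). The presynaptic metabotropic receptor genes Grm7 (1919 ± 287 against 3050 ± 275 CPM, -0.67 ± 0.06) and Grm8 (-1.12 ± 0.12) were lower, as was the kainate receptor subunit gene Grik1 (-1.27 ± 0.18). Of 24 potassium channel and KChIP genes, 8 were higher and 8 lower (median 0.05). The channel-interacting protein gene Kcnip4 (0.45 ± 0.05) and the Kv3 channel gene Kcnc1 (1.06 ± 0.15) were among the higher, and Kcnb2 (-0.53 ± 0.08) and the inward rectifier gene Kcnj3 (-0.64 ± 0.10) among the lower.

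Axon guidance and adhesion genes differed in both directions. Of 29 axon guidance genes tested, 11 were higher and 12 lower (median 0.09), against 10.7% and 10.4% over all genes tested. The netrin receptor gene Unc5c ranged from 1108 to 2351 CPM in members against 352.6 to 657.5 CPM in the others (1.72 ± 0.07), the Robo ligand gene Slit2 stood at 463 ± 142 against 156 ± 38.2 CPM (1.55 ± 0.08), and Sema5a at 239 ± 63.3 against 85.4 ± 9.15 CPM (1.49 ± 0.10). The Slit receptor gene Robo2 was lower at 507 ± 158 against 987 ± 90.8 CPM (-0.99 ± 0.09). Of 22 cadherins and contactins, 5 were higher and 9 lower (median -0.15), with Cntn4 (0.70 ± 0.08) and Cdh13 (1.30 ± 0.12) higher and Cntn3 (-0.80 ± 0.10) and Cdh6 (-0.85 ± 0.15) lower.

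Of 17 activity-dependent genes 9 were tested, and 5 of them were higher in members and none was lower (median 0.61). Over all genes tested, 10.7% were higher and 10.4% lower. The neurotrophin gene Bdnf ranged from 38.7 to 344.6 CPM in members and from 23.0 to 50.1 CPM in the others (2.27 ± 0.16, higher in 12 of 12 animals), Nr4a3 stood at 85.8 ± 58.7 against 28.4 ± 6.55 CPM (1.6 ± 0.21, 9 of 12), Fosl2 at 1.42 ± 0.35 and the scaffold gene Homer1 at 0.58 ± 0.14. Both Bdnf and Nr4a3 were also high in the members outside the cluster. Bdnf was pooled at 152.4 CPM inside the cluster and 267.4 CPM outside it, and Nr4a3 at 36.6 and 182.8 CPM. For members inside the cluster, fitted on 4 WT and 4 Het animals, Nr4a3 stood at 0.45 (adjusted p = 0.274 by edgeR) and Bdnf at 2.10. These values are a description, since the cluster was drawn from the same data. Nr4a2, on which members were selected, is itself an activity-induced gene of the same family as Nr4a3.

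Myt1l, the gene mutated in the Het mice (ENSMUSG00000061911.15, chromosome 12, 29528384 to 29923213), was lower in members than in other glutamatergic nuclei in all 12 animals. It ranged from 622.7 to 851 CPM in members and from 872 to 1140 CPM in the others, so that the ranges did not overlap, and the log2 fold change was -0.47 ± 0.07 (adjusted p = 5.3e-07 by edgeR). Its family member St18 was lower as well (-1.86 ± 0.39). St18 stood at 5463 CPM in oligodendrocytes against 6.58 CPM in members and 23.4 CPM in the other glutamatergic nuclei, pooled, and the summed oligodendrocyte genes were also lower in members (median 65.1 against 95.5 CPM), whose part in that result was not tested. Myt1 at -0.78 ± 0.38 did not pass the test.

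**Figure D3:**
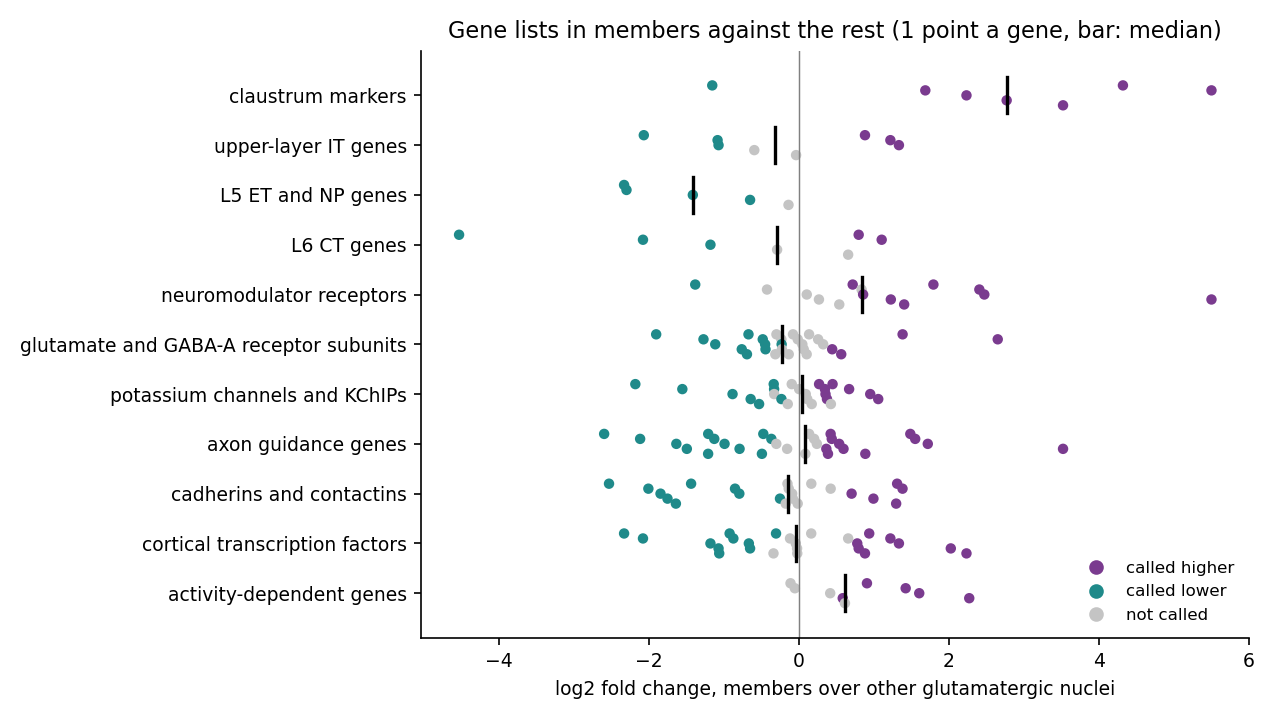
Log2 fold change of members over other glutamatergic nuclei for every gene tested on each gene list; each point is 1 gene, coloured where it passed the test and grey where it did not, and the bar marks the list's median. Neuromodulator receptors lie mostly above 0 (8 higher, 1 lower) and layer 5 extratelencephalic genes below it (4 lower).

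At the median animal, summed markers of GABAergic neurons, astrocytes, oligodendrocytes, microglia and vascular cells stood lower in members than in the other glutamatergic nuclei, and those of oligodendrocyte precursors and striatal neurons stood higher. These sums were not tested. The 8 GABAergic genes listed, including Gad1 and Gad2 which the rule set to 0, summed to 14.9 to 336.3 CPM in members and 114.9 to 230.1 CPM in the other glutamatergic nuclei, and 4 of the 8 were at 0 in every animal's members. The 6 astrocyte genes listed summed to 256.4 to 773 CPM against 508.7 to 694.3 CPM, 2 of them at 0, and both tested were lower in members (Slc1a2 at -0.68 ± 0.11 and Slc4a4 at -0.76 ± 0.14). The 5 microglia genes listed summed to 6.46 to 79.1 CPM against 24.8 to 36.6 CPM, and 5 vascular genes to 0 to 40.4 CPM against 5.44 to 9.22 CPM, so that the highest animals lay above the other nuclei. These levels in members rest on few UMIs, since an animal's members held 82608 to 297136 UMIs in all. The 4 genes listed for oligodendrocyte precursors summed to more in members, 8.03 to 97.9 CPM (median 36.1) against 9.71 to 19.4 CPM (median 12). The 1 tested, Vcan, was higher, but it reached the minimum count for testing only through its level in members. Nearly all of that sum was Vcan, pooled at 43.0 CPM in members and 9.77 CPM in the others. Pdgfra stood at 2.45 and 1.62 CPM, Olig1 at 0.545 and 0.568 CPM, and Cspg4 at 0 and 1.01 CPM. The 7 striatal genes, which could mark neurons next to the claustrum, summed to 1049 to 2260 CPM (median 1529) in members against 1180 to 1691 CPM (median 1478). Drd1 and Rgs9 were higher and Pde10a was not called (0.10 ± 0.07). For members inside the cluster, fitted on 4 WT and 4 Het animals, Rgs9 stood at 0.68 (adjusted p = 0.147 by edgeR), as a description.

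Members were also compared with the layer 6 corticothalamic gate, the larger of the 2 deep-layer gates made here. Of 4444 genes tested, 794 (17.9%) were higher and 748 (16.8%) lower in members. Ntng2 stood at 752 ± 164 CPM in members and 5.69 ± 3.27 CPM in the corticothalamic nuclei, a log2 fold change of 6.98 ± 0.20. Col11a1 (6.49 ± 0.14), Synpr (4.97 ± 0.24), Cux2 (4.73 ± 0.15) and Unc5c (4.15 ± 0.12) were higher in 12 of 12 animals. Oprk1 was at 0 in 4 of the 12 corticothalamic sums and at most 1.88 CPM in the rest. In the other direction Syt6 stood at 0.982 ± 2.51 against 150 ± 34.8 CPM and Tle4, a corepressor of corticothalamic neurons, at 70.8 ± 44.4 against 594 ± 66.3 CPM (-3.03 ± 0.19), each lower in all 12 animals. Of the 5 upper-layer genes tested, all were higher in members than in this gate. The gate for layer 6b found 30 nuclei, and the same contrast was not run.

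The share of members was lower in Het than in WT cortex. Members were 1.20%, 0.895% and 1.32% of glutamatergic nuclei in WT males 1 to 3, and 1.01%, 1.42% and 1.42% in WT females. They were 0.726%, 1.04% and 0.994% in Het males and 0.944%, 0.935% and 0.706% in Het females. None of the 6 Het animals lay above the WT median of 1.26%, although the groups overlapped, with WT male 2 below 4 of the Het animals and WT female 1 below Het male 2. The means were 1.21% ± 0.218 (SD, n = 6) and 0.891% ± 0.142 (SD, n = 6), a difference of -0.317 percentage points (exact two-sided permutation test, p = 0.0238). Within males the difference was -0.214 (exact permutation p = 0.3) and within females -0.42 (exact permutation p = 0.1), where 0.1 is the smallest p that 3 against 3 allows, and these differed by 0.206 between the sexes (exact permutation p = 0.35).

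That difference depended on how members were counted. With each nucleus thinned to 3000 UMIs it was -0.234 (exact permutation p = 0.0584), and with a Nr4a2 and Gnb4 sum of 4 or more -0.134 (exact permutation p = 0.279). All 335 nuclei of the claustrum-like cluster made up 1.61% ± 0.574 in WT and 1.35% ± 0.331 in Het (SD, n = 6 each, difference -0.262, exact permutation p = 0.34). The clustering left out the genes of the rule, but its nuclei were gated on Slc17a7, Gad1 and Gad2, and the cluster was picked by its members. Over all kept barcodes the difference in members was -0.0796 (exact permutation p = 0.0714) and under the study's limits -0.353 (exact permutation p = 0.0649). For members inside the cluster it was -0.308 (exact permutation p = 0.0476). In sums per animal and in a share that rests on UMI thresholds, fewer nuclei of a type and fewer molecules of its marker genes per nucleus cannot be told apart. Within the cluster, Nr4a2 was at 345 ± 72.4 CPM in WT and 292 ± 72.9 CPM in Het (n = 6 each) and Gnb4 at 320 ± 102 and 244 ± 87.9 CPM. Slc17a7, also required by the rule, ran the other way at 225 ± 30.2 and 269 ± 23.8 CPM. For each of these genes the genotypes overlapped. The levels are described without a test, since the rule used these genes and every nucleus of the cluster was gated on Slc17a7. The median UMIs per member were 7660 in WT and 8004 in Het (exact permutation p = 0.658). The part of these in the share was not tested.

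**Figure D4:**
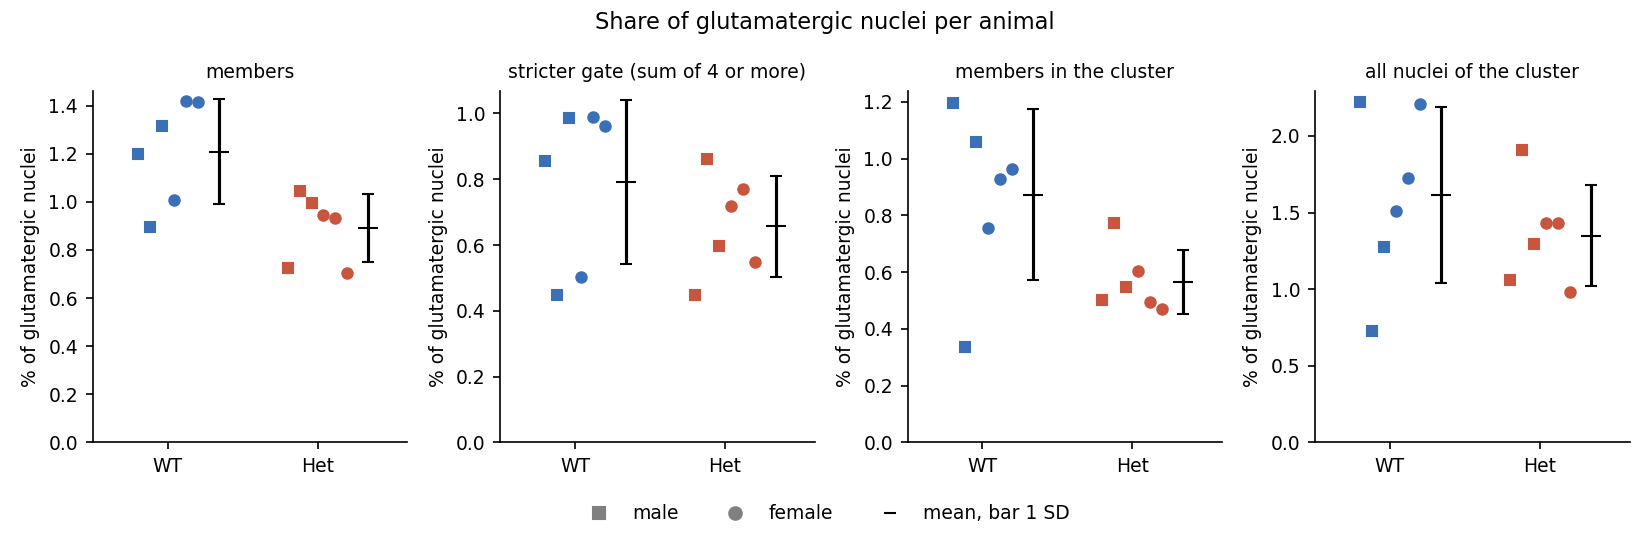
Members as a percentage of glutamatergic nuclei in each animal, by genotype and sex (squares male, circles female), with the genotype mean and 1 SD (n = 6 each), for members by the rule, with a sum of 4 or more, inside the claustrum-like cluster, and for all nuclei of that cluster. Het animals lie at 0.706% to 1.04% and WT animals at 0.895% to 1.42% by the rule, and the groups overlap widely for the cluster.

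Expression within members was then compared between Het and WT, and no gene passed the test. Of 2423 genes with enough counts, 0 (0%) were called by edgeR, 149 were at an unadjusted p under 0.05, and DESeq2 called 0 with 118 at that level. Of 2355 genes compared for overlap, 13 had levels that did not overlap between genotypes (10 higher and 3 lower in Het). On simulated sums of the same size, 78.4% of 2-fold changes were recovered where 176 of 2305 genes tested were changed. For 3-fold changes, in 172 of 2302 genes tested, it was 98.8%. Fewer changed genes, for which the adjustment is stricter, and smaller changes were not simulated. Het and WT in the other glutamatergic nuclei differed in 46 of 16600 genes (0.277%), 42 of them higher in Het. That count was 130 by DESeq2 and 24 to 78 by edgeR with 1 animal left out. None of 7230 genes (0%) had a genotype effect that differed between members and the other glutamatergic nuclei by edgeR's interaction test (324 at an unadjusted p under 0.05). Of 2423 genes, none had a sex by genotype interaction in members (92 at an unadjusted p under 0.05).

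Myt1l itself stood at 631.6 to 776.9 CPM in WT members (median 696.5) and 654.8 to 881.6 CPM in Het members (median 797.3), and the ranges overlapped. The log2 fold change was 0.15 ± 0.13 (adjusted p = 0.879 by edgeR) in members and 0.10 ± 0.06 in the other glutamatergic nuclei. The sign turned under 3 other choices of members, each of which left fewer animals with 10 members. It was -0.12 with the stricter sum (4 WT and 5 Het animals) and -0.09 for members with a Synpr UMI (5 WT and 4 Het). For members inside the cluster it was -0.11 (4 WT and 4 Het). Nuclei and animals changed together, and their parts were not tested. The allele is a frameshift, and UMIs per gene do not separate the transcripts of the mutated copy from those of the intact copy, so this level does not check the genotype labels.

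The genes with the smallest p are given as values that did not pass. Chst11 (ENSMUSG00000034612.7, chromosome 10, 82985498 to 83195900), a chondroitin sulfotransferase gene, ranged from 82.9 to 173.4 CPM in WT (median 143.7) and from 196.4 to 315.5 CPM in Het members (median 257.2). The genotypes did not overlap, with a log2 fold change of 0.92 ± 0.20 (adjusted p = 0.147 by edgeR). Over all nuclei of the claustrum-like cluster the same gene stood at 146 ± 38.9 and 273 ± 51.2 CPM (0.86 ± 0.18, adjusted p = 0.0947), and in the other glutamatergic nuclei at 0.20 ± 0.08. The kinase gene Lrrk2 stood at 87.5 ± 37.5 CPM in WT and 229 ± 95.7 CPM in Het members (1.31 ± 0.28, adjusted p = 0.147 by edgeR). For members inside the cluster, fitted on only 4 WT and 4 Het animals, Lrrk2 stood at 0.28 (adjusted p = 0.934 by edgeR). Over all nuclei of the cluster, with 6 animals of each genotype, it stood at 0.01 ± 0.33. The share of an animal's members that lay inside the cluster was 71.1% ± 20.6 in WT (37.5% to 100%) and 63.6% ± 8.19 in Het (SD, n = 6 each, exact permutation p = 0.459).

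The kainate receptor subunit gene Grik3 stood at 124 ± 35.1 CPM in WT and 232 ± 54.3 CPM in Het members (0.87 ± 0.21, adjusted p = 0.283 by edgeR). It was called in the other glutamatergic nuclei (0.43 ± 0.06, adjusted p = 0.0054), as were the carbonic anhydrase gene Car12 (1.18 ± 0.30 in members and 0.46 ± 0.08 in the others) and the sodium-activated potassium channel gene Kcnt2 (-0.49 ± 0.15 and -0.36 ± 0.06). The interaction test gave an adjusted p of 0.949 or more by edgeR for each gene named here. The phosphodiesterase gene Pde4a stood at 0.79 ± 0.20 in members. On the lower side were Ythdc2 at -0.76 ± 0.20, the nicotinic receptor gene Chrna7 at -1.01 ± 0.28 (113 ± 48.2 against 55.3 ± 13.4 CPM), Gm42992 at -0.95 ± 0.26 and the phospholipase gene Plcb1 at -0.48 ± 0.14 (2239 ± 204 against 1595 ± 360 CPM), all with all 6 Het animals below the WT median. Over all nuclei of the cluster these stood at -0.43 for Ythdc2, -0.52 for Chrna7, -0.55 for Gm42992 and -0.20 for Plcb1.

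**Figure D5:**
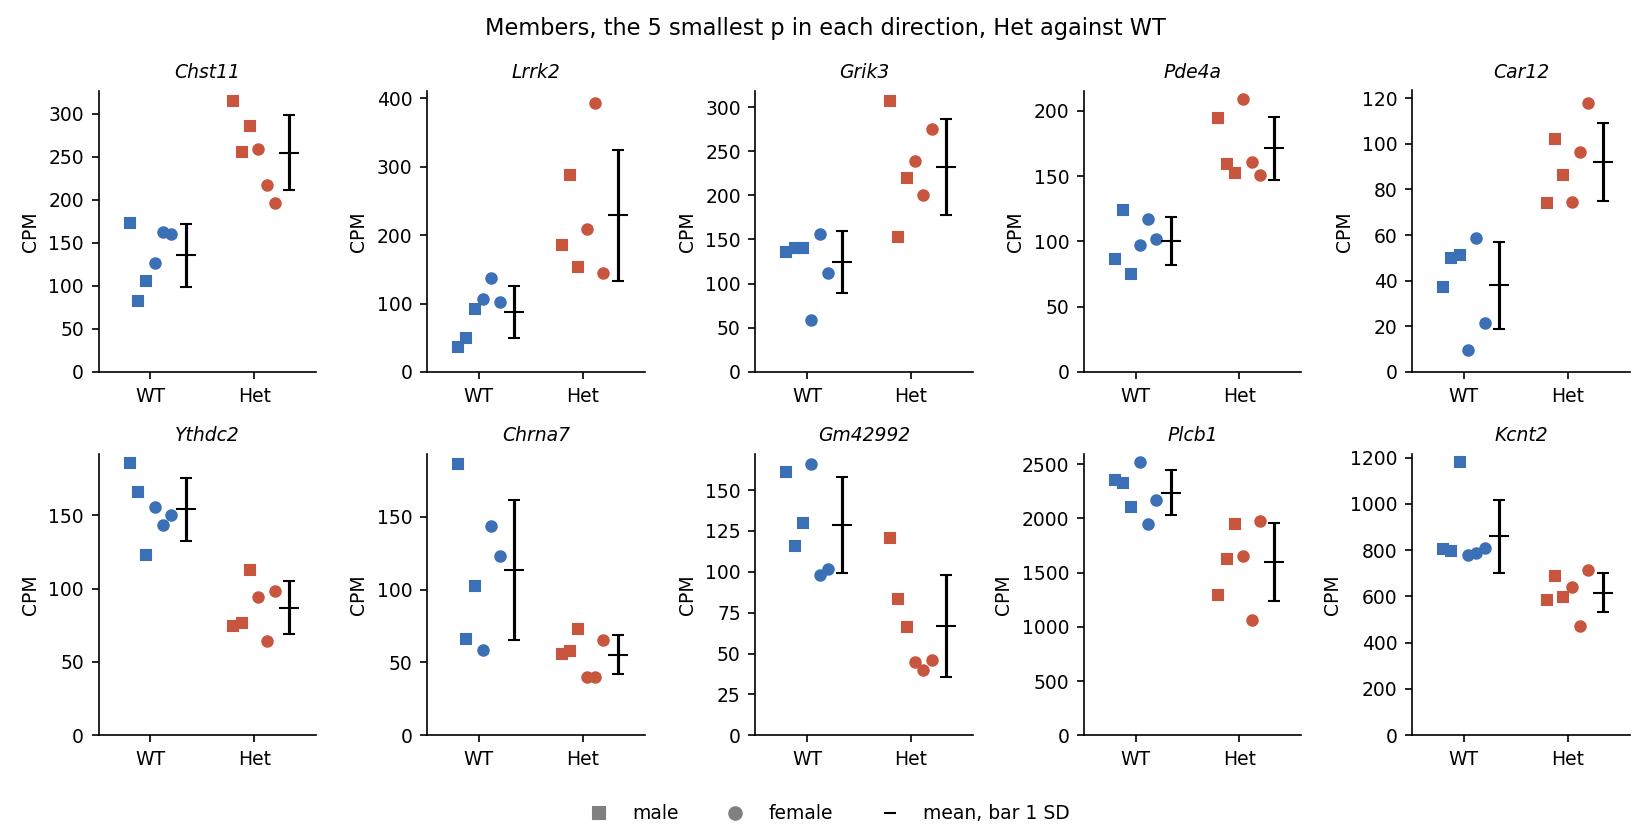
Levels (CPM, axes from 0) in members of each animal for the 5 genes with the smallest p in each direction between Het and WT; each point is 1 animal (squares male, circles female), with the genotype mean and 1 SD (n = 6 each). Chst11 does not overlap between genotypes (82.9 to 173.4 CPM in WT and 196.4 to 315.5 CPM in Het), and no gene passed the test.

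The identity genes of the members were not called between genotypes. Of 5 claustrum markers tested, 0 were called and 0 were at an unadjusted p under 0.05: Synpr stood at 548 ± 180 CPM in WT and 436 ± 179 CPM in Het, Ntng2 at 685 ± 196 and 800 ± 92.1 CPM, Oprk1 at 139 ± 69.6 and 107 ± 37.9 CPM, B3gat2 at 187 ± 51.7 and 137 ± 49.3 CPM and Gng2 at 401 ± 94.8 and 344 ± 60.8 CPM. The activity-dependent genes summed to 1049 ± 362 CPM in WT and 1392 ± 540 CPM in Het members, and to 621 ± 137 and 788 ± 122 CPM in the other glutamatergic nuclei. Of 3 tested, none was called in members, and Nr4a3 stood at 56.3 ± 38.0 and 116 ± 62.8 CPM (1.03 ± 0.43, adjusted p = 0.713 by edgeR). Of 23 axon guidance genes tested none was called, the smallest p belonging to the Robo ligand gene Slit3 at 520 ± 146 and 788 ± 121 CPM (0.58 ± 0.17, adjusted p = 0.442 by edgeR). Slit3 stood at 0.02 on the log2 scale for members inside the claustrum-like cluster, fitted on only 4 WT and 4 Het animals. Over all nuclei of the cluster, with 6 animals of each genotype, it stood at 0.26.

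All 335 nuclei of the claustrum-like cluster, chosen after the data were seen as the cluster with most members, gave the same comparison with more nuclei. The clustering itself left out the genes of the rule, but its nuclei were gated on Slc17a7, Gad1 and Gad2. No gene of 2775 was called (188 at an unadjusted p under 0.05). Of the 5 claustrum markers tested, 2 were at an unadjusted p under 0.05, B3gat2 at -0.47 (adjusted p = 0.528 by edgeR) and Oprk1 at -0.64 (adjusted p = 0.724 by edgeR). Beside Chst11, the smallest p belonged to the fucosyltransferase gene Fut9, at 402.6 to 572.3 CPM in WT and 244.1 to 350 CPM in Het (-0.63 ± 0.14, adjusted p = 0.0947 by edgeR). The transcription factor gene Mef2c stood at 991 ± 86.5 and 673 ± 113 CPM (-0.56 ± 0.13, adjusted p = 0.122 by edgeR). Smad3, a mediator of TGF-beta signalling, stood at 72.1 ± 35.8 and 155 ± 20.9 CPM (0.97 ± 0.22) and Gfra1 at 370 ± 80.7 and 666 ± 220 CPM (0.81 ± 0.18). These genes were named for their small p among the 2775, and none of the differences passed the test.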

How the data were processed

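Cortical nuclei of 12 mice (6 WT, 6 Het) were profiled with the Scale Biosciences kit. Per the labels and methods, the authors aligned reads to mm10 with the ScaleRna workflow, called cells and deposited UMI matrices; the study's own later steps used Seurat 4.3.0 and DESeq2 1.38.3. The deposited values are estimated counts (expected counts): 92.3% of nonzero entries were whole, and the fractional rest was kept in nuclei and rounded in sums. Doublet removal before deposit is not stated; leaving out the 5% of barcodes with the highest Scrublet scores was an alternative. Barcodes with at most 12000 UMIs and at most 1% mitochondrial UMIs were kept (71914 of 78743). The study's limits on UMIs and genes were narrower, and 50 of 242 members met them.

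UMIs were summed per animal over members and over each comparison group, with the virus-borne tdTomato transcript left out. An animal needed 10 members. The tests were edgeR 4.0.16 (R 4.3.3) quasi-likelihood fits with TMM, filterByExpr and Benjamini-Hochberg adjustment, on genotype alone or with the animal as a block, and DESeq2 1.42.0 as an alternative. For contrasts between groups of nuclei a gene also needed 2 UMIs expected in a member sum of median size, at its mean level in either group. A gene could thus be tested while sparse in members. This minimum was set after the files were seen. Between members and other glutamatergic nuclei the median log2 fold change was -0.02 with the minimum and -0.14 with filterByExpr alone. With the minimum, 68.8% of simulated 2-fold changes in members against other glutamatergic nuclei were recovered and 6.73% of calls were false. Standard errors are the absolute log2 fold change over the square root of the F statistic, an approximation. CPM in tests used TMM factors, while sums over lists and pooled levels did not. Clustering (scanpy 1.11.5, 3000 variable genes, 50 components, 20 neighbours, Leiden resolution 2) left out the genes of the rule. Shares were compared with exact permutation tests (scipy 1.17.1), and intervals are exact 95% binomial intervals. Coordinates are from GENCODE vM21 on GRCm38, matched by versioned identifier for 54587 of 55335 genes.

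Members and gene lists were chosen with earlier results of these data known. Named genes were the claustrum list, the 12 called genes with the largest change in each direction at 50 CPM or more and in 12 of 12 animals, the 5 smallest p in each direction where no gene was called, up to 4 genes of each list by p, and Myt1l. The replicate numbers did not pair the samples (correlations of same-numbered animals from -0.0559 to 0.124).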

Additional observations from a re-analysis of the deposited data

Results flagged for a closer look

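In groups of 6 animals, 56 sets of values were compared with Dixon's criterion, and 6 held 1 animal far from the others; chance alone would give about 1 in 20. Kcnt2 in the members of WT male 3 stood at 1181 CPM, against 779.6 to 809.1 CPM in the other WT animals, and this animal also gave the most members. Nr2f2 stood at 96.84 CPM in WT male 1 (16.5 to 32.3 CPM in the other WT animals), the animal whose 14 members all lay in the claustrum-like cluster. The summed GABAergic genes stood at 336.3 CPM in Het male 2 (98.9 to 172.3 CPM in the other Het animals) and the summed astrocyte genes at 773 CPM in WT female 1 (310.1 to 446.1 CPM). The summed microglia genes stood at 79.12 CPM in Het male 3 (16.1 to 34.8 CPM), and the summed vascular genes at 40.39 CPM in Het male 1 (0 to 14.1 CPM). Both of these sums rest on few UMIs.

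The virus-borne tdTomato transcript, which no comparison used, gave a UMI in 113 of 242 members, or 46.69% (exact 95% interval 40.3 to 53.2). All animals were injected, so no background share is given. The share ran from 16.7% in WT male 3 to 81.2% in WT male 2, with a median of 45.6% over the 12 animals.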

How the results depend on the processing

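The share of members kept its direction but passed no threshold when nuclei were thinned to 3000 UMIs (-0.234), over all kept barcodes (-0.0796, p = 0.0714 by exact permutation), under the study's limits (-0.353, p = 0.0649 by exact permutation), with the stricter sum (-0.134) and for all nuclei of the claustrum-like cluster (-0.262). With the replicate block, pairing animals by sex and number, it was -0.317 with p = 0.0938 by exact permutation, and the block changed no call between genotypes in members. Leaving out 1 animal gave -0.38 to -0.275. Without a filter on low counts, 6 of 20711 genes were called between genotypes in members (Lrrk2, Nnat, Slc44a5, Olfm3, Ntng1 and Zdbf2), and 3012 genes against the corticothalamic gate. In other glutamatergic nuclei DESeq2 called 130 genes between genotypes, and leaving out 1 animal gave 24 to 78, over 1.5 times from 46 without WT male 2, WT male 3, WT female 3, Het male 2, Het male 3, Het female 1 or Het female 3. Members against other glutamatergic nuclei gave 748 higher and 638 lower genes by DESeq2, 529 and 1715 with no filter (median log2 fold change -0.68) and 633 and 1291 with filterByExpr alone (median -0.14). Myt1l turned to -0.12, -0.086 and -0.11 under the 3 choices of members named above, which also left fewer animals. Of the values for single named genes under all alternatives, 1958 kept direction and call, 11 lost the call (Bcl11b 6 times, Slc17a6 2 times, and Lpar1, Nr4a3 and Rgs9), 1 gained it (Lrrk2, no filter) and 3 turned sign. Nr4a3 and Rgs9 lost it for members inside the cluster, where fewer animals were fitted. The study's limits left no animal with 10 members, so tests of expression under them, and the contrast with layer 6b, were not run. Causes were not tested, and 12 to 36 nuclei an animal limit all values.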

Other observations

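Of 5 genes tested from a list of hippocampal, amygdalar and other glutamatergic markers, 2 were higher in members than in other glutamatergic nuclei and 2 lower. Over all genes tested, the shares were 10.7% and 10.4%. Tfap2d, already named above, stood at 66.6 CPM pooled inside the claustrum-like cluster and 12.8 CPM outside it. Slc17a6, which encodes the vesicular glutamate transporter VGLUT2, was higher at 23.4 ± 11.99 against 13.5 ± 1.33 CPM (log2 fold change 0.91 ± 0.27), a call that was lost without WT male 3 (0.68, adjusted p = 0.109 by edgeR) and without a filter on low counts (0.68, adjusted p = 0.129 by edgeR). The homeobox gene Meis2 (-0.67 ± 0.14) and the zinc finger gene Zbtb20 (-0.93 ± 0.24) were lower, and both were lower inside the cluster than outside when pooled, at 59.1 and 331.2 CPM for Meis2 and 107.2 and 292.2 CPM for Zbtb20. Their log2 fold changes for members inside the cluster were -1.99 and -1.70. The matrix proteoglycan gene Vcan, the 1 gene tested from the list of oligodendrocyte precursor markers, was higher in members at 37.5 ± 30.0 against 9.91 ± 2.40 CPM (2.04 ± 0.31, 9 of 12 animals), with 61.2 CPM pooled inside and 8.67 CPM outside. As said above, Vcan was tested only through its level in members.

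Of 22 genes that the study itself named in its own comparisons of this age, a list chosen on these samples, 5 were higher and 9 lower in members than in other glutamatergic nuclei, and none of the 17 tested was called between Het and WT members. Over all genes tested, 10.7% were higher and 10.4% lower in members, and none was called between genotypes. The kinase gene Pak1 was lower in members at 87.0 ± 40.3 against 164 ± 18.2 CPM (-0.90 ± 0.14).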
